A study of Homo sapiens with 4 samples.

Results

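The cytosolic ribosomal protein genes were described here in a time course of mineralizing human osteoblasts. They were taken from the deposited mRNA table as the genes whose symbol is RPL or RPS followed by a number, with or without a final A or X, together with RPLP0, RPLP1, RPLP2 and RPSA. This rule found 77 of the 19610 gene symbols of the table, 46 of the large and 31 of the small ribosomal subunit. Of 79 human genes expected for the cytosolic ribosome, 77 were matched. The other 2 do not carry an RPL or RPS symbol.

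The samples were hFOB1.19 cells, a line derived from human fetal osteoblasts and immortalised with a temperature-sensitive SV40 large T antigen. These cells divide at a lower, permissive temperature and differentiate when moved to a higher one. RNA was collected on day 0 (labelled control) and on days 3, 6 and 9 of mineralization, from the same cell line and with 1 library per time point, so no difference below has a replicate check and no p-value was computed. Per the study's methods the day 0 cells grew at the lower temperature, so that time, differentiation and temperature cannot be told apart.

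A ribosome is built from ribosomal RNA and about equal numbers of copies of each ribosomal protein, and the small subunit reads the mRNA while the large subunit joins amino acids. The genes of these proteins are among the most highly transcribed in dividing cells. Most of their mRNAs begin with a C followed by an unbroken run of pyrimidines, the terminal oligopyrimidine (TOP) tract, through which their translation follows growth signals via mTOR and LARP1.

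The transcription starts of some members are shown because the TOP tract is the sequence feature for which this gene family is known. Each stretch of 30 bases runs 5′ to 3′ on the strand of the gene, from 15 bases before the annotated start, and was copied from RefSeq on build GRCh38.p14. Capitals mark a C within 5 bases of the start and the pyrimidines that follow it without a break, where there are at least 4 of them. The members with the highest day 9 ratios to day 0 below, RPS19 (chr19:41860240-41860269, plus strand), RPL39 (chrX:119791616-119791645, minus strand), RPS21 (chr20:62387088-62387117, plus strand) and RPL26 (chr17:8383179-8383208, minus strand), read as follows.
RPS19: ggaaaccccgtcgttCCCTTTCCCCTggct
RPL39: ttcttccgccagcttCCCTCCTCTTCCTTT
RPS21: ggtgactagctgcttCCTTTCTCTCTCgcg
RPL26: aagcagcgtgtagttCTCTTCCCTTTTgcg

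Some members with low ratios held the same feature at the starts shown. They are RPL19 (chr17:39200308-39200337, plus strand), RPL18 (chr19:48619164-48619193, minus strand), RPS27A (chr2:55232673-55232702, plus strand) and RPLP0 (chr12:120201097-120201126, minus strand), of which RPL19 has another annotated start that is also TOP-like and RPS27A has 2 others that are not.
RPL19: gagcgagctctttcCTTTCgctgctgcggc
RPL18: accccagcccgttctCTCTTTCCggacctg
RPS27A: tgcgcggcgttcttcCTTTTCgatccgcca
RPLP0: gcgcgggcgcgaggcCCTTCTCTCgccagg

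For contrast, the starts of RPS26 (chr12:56041903-56041932, plus strand), RPS29 (chr14:49598696-49598725, minus strand) and RPS4X (chrX:72277234-72277263, minus strand) held no such run by that rule. In RPS26 such a run begins just beyond the 5 bases allowed, so its place here rests on that window. RPS26 and RPS29 also had low ratios to day 0, and the stretch of RPS29 shows no such run at all. Members with low ratios were thus found with and without the feature at the starts shown.
RPS26: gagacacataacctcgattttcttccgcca
RPS29: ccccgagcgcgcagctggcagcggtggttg
RPS4X: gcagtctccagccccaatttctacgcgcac

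Of the 77 members, 62 had a start in the RefSeq table, and 53 of these (85.5%) had at least 1 TOP-like start by this rule, 33 of 38 large and 20 of 24 small subunit genes. Counted over starts, 57 of 77 (74%) were TOP-like, against 22.4% of 14498 starts of all genes tested here and 21.1% of all 35116 starts in the table. The 9 genes without a TOP-like start by this rule were RPL6, RPL9, RPL15, RPL17, RPL27, RPS4X, RPS15, RPS26 and RPS29. Among them, RPL9, RPS15 and RPS26 have a C with at least 4 pyrimidines further downstream, within 15 bases of the start. The starts of the other 15 members were not analysed here. The letters CCGGAAG, sought on either strand in the whole 300 base window as a core of binding sites of ETS family factors, were present at 33.8% of the members' starts, at 38.1% of those of the mitochondrial ribosomal protein genes and 41.9% of those of the ribosome biogenesis genes described below, at 16.4% of those of all genes tested and at 10.3% of all starts in the table. These matches describe the annotated sequence and not binding or use of a site.

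**Figure D1:**
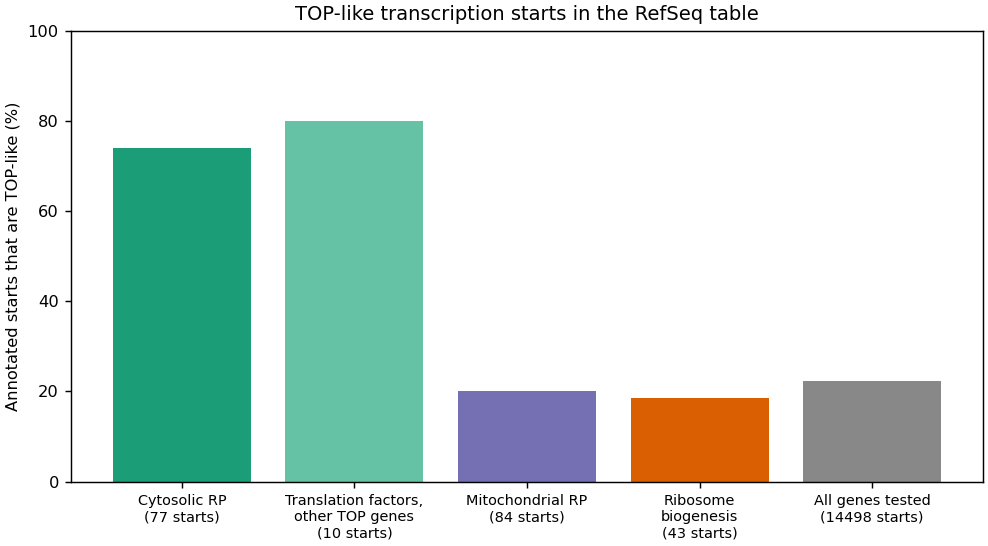
Share of annotated transcription starts (%) that are TOP-like, for the cytosolic ribosomal protein (RP) genes and 4 other sets of genes, with the number of starts under each bar. The bars of the cytosolic RP genes (74%) and of the translation factors and other TOP genes (80%) stand above those of the mitochondrial RP genes (20.2%), the ribosome biogenesis genes (18.6%) and all genes tested (22.4%).

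The values were FPKM, fragments scaled to transcript length and to the number of mapped fragments, summed over the transcripts of each symbol. Genes with at least 1 FPKM in any library were compared, 12859 in all, and ratios are on the log2(FPKM + 1) scale, on which a 2-fold difference is 1. The total FPKM of the libraries lay between 538072 on day 3 and 617857 on day 0, and bringing the libraries to the same total would raise every log2 ratio by 0.20, 0.18 and 0.12 on days 3, 6 and 9. The osteoblast genes COL1A1 (777, 1974, 1587 and 1146 FPKM on days 0, 3, 6 and 9), COL1A2 and SPARC were high in all 4 libraries, and RUNX2, the master regulator of the lineage, was at 7.37, 26.2, 19.3 and 18.2 FPKM. ALPL had 0.29, 4.32, 4.35 and 4.18 FPKM and SPP1 had 0.79, 1.89, 5.14 and 7.45 FPKM, both below 1 FPKM on day 0 and above it later. SP7, BGLAP and IBSP were below 1 FPKM throughout. Of 9 markers of blood, endothelial, epithelial and fat cells, 8 stayed below 1 FPKM, and only CD68, at 16.2, 37.5, 65.1 and 90.6 FPKM, was above it. The part of CD68 in the results below was not tested.

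All 77 members were abundantly expressed on every day and none was listed at 0. On day 0 they lay between 184 FPKM (RPL37) and 3763 FPKM (RPS27) with a median of 1098 FPKM, against a median of 14.2 FPKM over all genes tested. The medians on days 3, 6 and 9 were 840, 912 and 941 FPKM. Together the 77 genes made up 14.7, 13.9, 14.6 and 14.3% of all mRNA FPKM on days 0, 3, 6 and 9, so their share stayed within 1 percentage point. On the 4 days 47, 48, 50 and 48 of them were among the 100 most abundant genes, and 73 or 74 among the 200 most abundant. In bulk RNA such as this, fewer cells with a high level and a lower level in every cell cannot be told apart.

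The order of the members by abundance was nearly the same on all days. Spearman's rho between the FPKM of 2 libraries over the 77 genes, given as a description since these genes share the libraries, lay between 0.937 for days 0 and 3 and 0.992 for days 3 and 6. The ratio of the highest to the lowest member was 20.5 on day 0 and 26.0 on day 9. RPS27, a zinc-binding protein of the small subunit, led in every library with 3763, 3539, 3574 and 3545 FPKM. RPS29, also zinc-binding, was next on day 0 with 3332 FPKM and stood at 2096, 2201 and 2245 FPKM on the later days. RPL41, the smallest protein of the ribosome, had 2541, 2023, 2228 and 2459 FPKM. These 3 genes together with RPS21 and RPS19 had the highest means over the 4 libraries.

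At the other end, RPL37, a zinc-binding large subunit protein, was the lowest member in every library with 184, 153, 147 and 136 FPKM. RPS28, which lies where the mRNA leaves the small subunit, followed with 208, 171, 197 and 220 FPKM. RPL22, whose close relative RPL22L1 can take its place, had 338, 247, 245 and 244 FPKM, and RPS25 had 458, 391, 416 and 445 FPKM. These low members were still far above the median of all genes.

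Against day 0, no member differed by 2-fold or more on any later day, and most were slightly lower. On day 3, 71 of 77 members (92.2%) lay below their day 0 level, against 55.1% of all genes tested. The median log2 ratio was -0.31, a level of 0.807 times that of day 0, with the middle of the family between -0.47 and -0.16. Over all genes the median was -0.08, and 13.4% of them passed the 2-fold limit on day 3 (8.13% higher and 5.3% lower), while 0 of 77 members did. The lowest member was RPS27A at -0.93 and the highest RPS19 at 0.91.

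On day 6, 67 of 77 members were below day 0 with a median log2 ratio of -0.22, and on day 9, 61 of 77 with a median of -0.20. The medians of all genes were -0.08 and -0.09 on these days. The 2-fold limit was passed by 15.4% of all genes on day 6 (9.01% higher and 6.42% lower) and 16.1% on day 9 (9.6% higher and 6.52% lower), and by 0 of 77 members on either day. The 3 comparisons share the single day 0 library, so they are not independent of each other.

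How far below day 0 the family stood depended on the scaling of the libraries. At the same total FPKM the median log2 ratios were -0.11, -0.04 and -0.08 on days 3, 6 and 9, with 52, 45 and 47 of 77 members below 0. The all-gene medians were then 0.10, 0.08 and 0.01. Relative to all genes the family's median was lower, with differences of -0.23, -0.13 and -0.11 as deposited and -0.21, -0.12 and -0.10 at the same total. Rescaling multiplies every gene of a library by the same factor, so these differences had to be similar on either scale.

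The ratios of the members were close to each other. Their SD over genes was 0.27 on day 3, against 0.76 for all genes tested. In 63 of 77 members (81.8%) the highest and the lowest of the 4 libraries lay within 1.5-fold, which held for 41.2% of all genes tested, and in 77 of 77 they lay within 2-fold. The members were far more abundant than all genes tested, with day 0 medians of 1098 and 14.2 FPKM. Their spread was not compared with that of genes of like abundance. The flattest members, with all 4 libraries within 1.1-fold, were 9 genes, among them RPL3, RPL29, RPL31, RPL36, RPS4X, RPS20 and RPS27. RPS4X, the X-linked copy of a small subunit protein, had 476, 477, 475 and 469.5 FPKM.

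**Figure D2:**
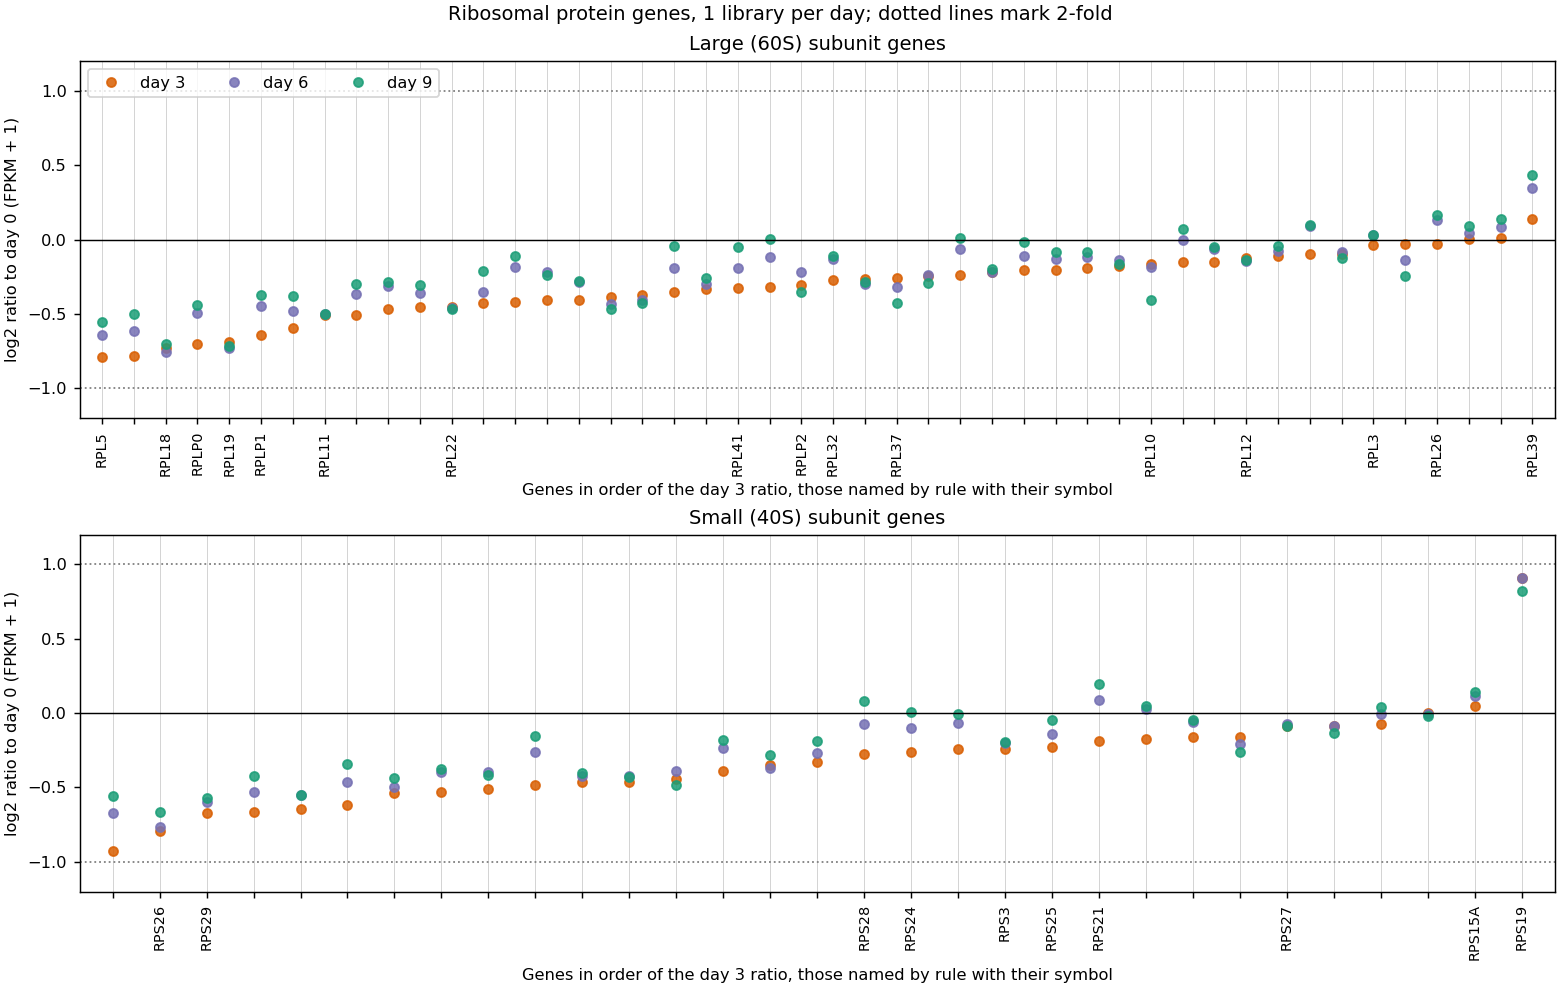
The log2 ratio to day 0 of each of the 46 large (top) and 31 small (bottom) subunit genes on days 3, 6 and 9, in order of the day 3 ratio, with dotted lines at a 2-fold difference and symbols for the members named by rule. All points lie inside the dotted lines, most lie just below 0, and RPS19 stands apart at 0.82 to 0.91.

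As deposited, the same shape over time recurred in most members, with the highest level on day 0, the lowest on day 3 and a partial return. Day 0 was the highest of the 4 libraries for 60 of 77 members (77.9%), against 46% of all genes tested. Day 3 was the lowest for 53 members (68.8%), against 22.5% of all genes. These 60 members were below day 0 on all 3 later days. At the same total, day 0 was the highest for 40 members (51.9%, against 36.8% of all genes) and day 3 the lowest for 35 (45.5%, against 14.7%).

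Between the later libraries, where day 0 plays no part, the differences were small. From day 3 to day 6 the median log2 ratio was 0.08, with 62 of 77 members higher on day 6, 35 of 46 large and 27 of 31 small subunit genes. From day 6 to day 9 it was 0.03, with 57 of 77 higher on day 9. The medians of all genes were 0.00 and 0.01. At the same total the direction from day 3 to day 6 was kept, with a median of 0.05 and 57 of 77 members higher, but that from day 6 to day 9 turned, with a median of -0.03 and 25 of 77 higher. No member passed the 2-fold limit in these comparisons, which 1.05% and 0.544% of all genes passed.

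By day 9, 16 members were at or above their day 0 level. RPS19, RPL39, RPL31, RPL36 and RPS15A were above day 0 on every later day, although RPL31 and RPL36 only by log2 ratios between 0.00 and 0.14.

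RPS19 departed most from the rest of the family. This small subunit protein is needed to mature the 40S subunit and is the gene most often mutated in Diamond-Blackfan anaemia, an inherited failure of red cell production. It had 1272 FPKM on day 0 and 2388, 2393 and 2245 FPKM on days 3, 6 and 9. All 3 later libraries thus lay close together and far above day 0, with log2 ratios of 0.91, 0.91 and 0.82. On day 3 the next member was RPL39 at 0.14. With the libraries at the same total, RPS19 was past the 2-fold limit on days 3 and 6 (1.11 and 1.09), as were 11.2% and 11.6% of all genes in the upward direction, and short of it on day 9 (0.94), when 11.1% of all genes passed it upwards. A single transcript, ENST00000221975, held 92.2 to 93.0% of its FPKM in all libraries and stood at 1183, 2202, 2216 and 2073 FPKM, so the sum and its leading transcript showed the same difference.

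RPL39, a small protein that lines the tunnel through which the new peptide leaves, was higher on each later day, with 1416, 1559, 1804 and 1909 FPKM. Its log2 ratios were 0.14, 0.35 and 0.43. RPS21 had 2358, 2073, 2503 and 2702 FPKM and was below day 0 on day 3 but above it on days 6 and 9, with log2 ratios of -0.19, 0.09 and 0.20. RPL26, at the rim of the exit tunnel, followed the same course with 1944, 1905, 2126 and 2179 FPKM. RPS15A had 1609, 1664, 1742 and 1779 FPKM. On day 9 these 4 genes and RPS19 had the highest ratios of the family, from 0.14 for RPS15A to 0.82 for RPS19.

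The largest decreases were 1.5-fold to nearly 2-fold as deposited. At a limit of 1.5-fold, 13 members were lower on day 3, 7 on day 6 and 3 on day 9, against 18.5, 20.1 and 20.4% of all genes tested. With RPS19, the only member that was higher by as much, 14, 8 and 4 members passed it in either direction, against 35.9, 38.1 and 38.6% of all genes. As deposited, RPL18, RPL19 and RPS26 were below this limit on all 3 days. At the same total RPL18 was short of it on all 3 days (log2 ratios of -0.53, -0.58 and -0.58). On that scale RPL19 passed it on day 9 only (-0.49, -0.55 and -0.60), and RPS26 on day 3 only (-0.60, -0.58 and -0.55). RPL19, at the rim of the exit tunnel, had 1372 FPKM on day 0 and 851, 826 and 837 FPKM afterwards, and its log2 ratios of -0.69, -0.73 and -0.71 showed no return towards day 0. RPL18 had 1010, 608, 598 and 622 FPKM. RPS26, which touches the mRNA as it leaves the small subunit, had 892, 514, 526 and 562 FPKM.

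RPS27A, made as a fusion with ubiquitin, had the lowest ratio of day 3 with 732, 385, 460 and 498 FPKM, and it lay closer to day 0 on each later day (log2 ratios of -0.93, -0.67 and -0.55). RPS29 stood at log2 ratios of -0.67, -0.60 and -0.57. RPL6 had 1137, 659, 740 and 803 FPKM. The others that passed the 1.5-fold limit on day 3 were RPL5, RPLP0, RPLP1, RPL24, RPS7, RPS10 and RPS14.

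**Figure D3:**
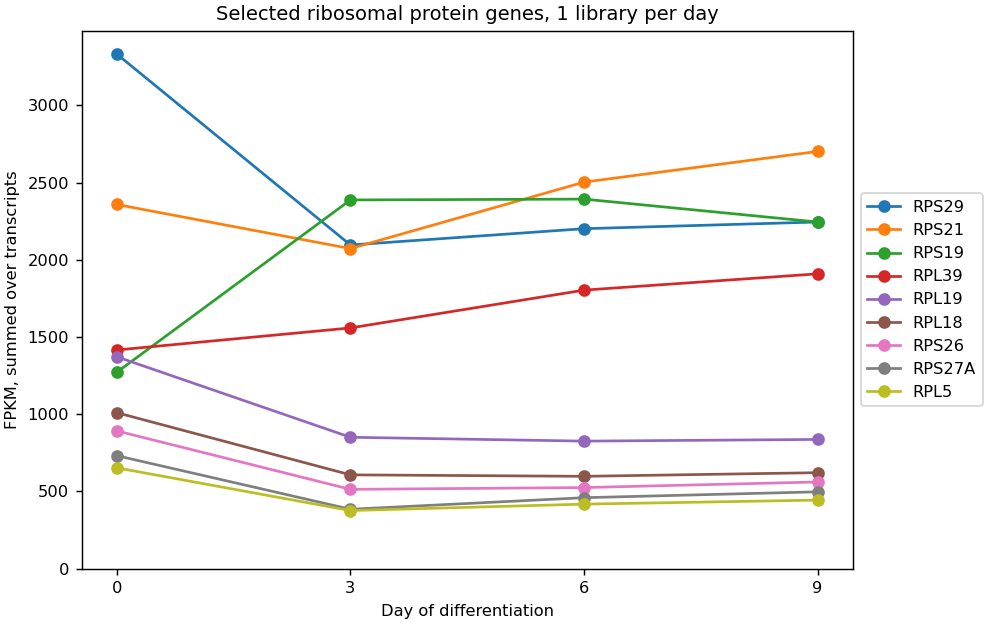
FPKM, summed over transcripts, of 9 ribosomal protein genes on days 0, 3, 6 and 9, with 1 library per day. RPS19 and RPL39 end above their day 0 level, RPS21 dips on day 3 and ends above it, and RPS29, RPL19, RPL18, RPS26, RPS27A and RPL5 stay below day 0 on all later days.

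Large and small subunit genes had similar median ratios on each day. On day 3, 43 of 46 large and 28 of 31 small subunit genes were below day 0, with median log2 ratios of -0.29 and -0.33. On day 6 the medians were -0.20 and -0.23, and on day 9 they were -0.22 and -0.19. The difference of large minus small was 0.04, 0.03 and -0.04, and it was not tested. The large subunit genes held 8.37, 7.82, 8.21 and 8.07% of all FPKM and the small subunit genes 6.34, 6.08, 6.35 and 6.22%. The median FPKM of the large over that of the small subunit genes was 1.01, 1.17, 1.15 and 1.09, whereas the ratio of their geometric means lay between 0.951 and 0.969. Which subunit had the higher typical level therefore depended on the measure.

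Within the large subunit, the genes of the stalk differed from each other, with RPLP0 and RPLP1 the furthest below day 0 on day 3 and RPL12 nearest to it. The stalk recruits the elongation factors and is made of RPLP0, with RPL12 at its base and copies of RPLP1 and RPLP2 at its tip. RPLP0 had 1288, 792, 912 and 949 FPKM and RPLP1 had 719, 461, 528 and 556 FPKM, both lowest on day 3. RPLP2 had 657, 530, 565 and 514 FPKM, with its lowest value on day 9. RPL12 had 1269, 1166, 1150 and 1154 FPKM, and its log2 ratios of -0.12, -0.14 and -0.14, close to 0, became 0.08, 0.04 and -0.02 at the same total. The median log2 ratio of the 4 stalk genes was -0.47, -0.33 and -0.36 on days 3, 6 and 9, and 0 of 4 passed the 2-fold limit.

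RPL5 and RPL11 bind 5S ribosomal RNA and, outside the ribosome, the p53 regulator MDM2. RPL5 had 653, 377, 418 and 444 FPKM, with log2 ratios of -0.79, -0.64 and -0.55. RPL11 had 1593, 1119, 1126 and 1128 FPKM and stayed at a log2 ratio of -0.51 to -0.50 on all later days. RPL11 thus showed no return after day 3, while RPL5 lay nearer to day 0 on each later day.

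The proteins near the peptidyl transferase centre, where peptide bonds form, differed from each other. RPL3 was flat with 672, 654, 688 and 685 FPKM. RPL10, which is added late in the making of the large subunit, had 1420, 1266, 1251 and 1072 FPKM and was lowest on day 9, with log2 ratios of -0.17, -0.18 and -0.41. The median of these 2 genes was -0.10, -0.07 and -0.19 as deposited but 0.10, 0.10 and -0.07 at the same total.

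The 8 genes of the peptide exit tunnel and its rim spread from RPL19 to RPL39, the lowest and the highest of the list on all 3 days. Their median log2 ratio was -0.21, -0.17 and -0.11 as deposited, and -0.01, 0.01 and 0.01 at the same total. RPL31 was close to its day 0 level throughout with 921, 929, 975 and 1013 FPKM, and RPL35 was below it with 2306, 1682, 1801 and 1864 FPKM. The exit tunnel genes thus had no common direction.

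In the small subunit, all 4 genes of mRNA entry and decoding were below day 0 on every later day, and on either scale. RPS2 had 1678, 1156, 1189 and 1241 FPKM and RPS3 had 1240, 1048, 1080 and 1085 FPKM. RPS23 had 1344, 974, 1002 and 996 FPKM. The median of the list, which also holds RPS15, was -0.41, -0.40 and -0.36. At the mRNA exit, RPS14 had 1072, 685, 731 and 731 FPKM and, like RPS26, was below day 0 on every later day. RPS28, in the same region, had log2 ratios of -0.28, -0.07 and 0.08.

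Of the 19 members that are known Diamond-Blackfan anaemia genes, 16, 15 and 13 were below day 0 on days 3, 6 and 9. This compares with 71, 67 and 61 of all 77 members. The medians of the 19 were -0.42, -0.35 and -0.21. At the same total 13, 10 and 10 of the 19 were below day 0, with medians of -0.23, -0.17 and -0.09. The list holds both the highest member, RPS19, and low members such as RPS26, RPL18 and RPL5, and 0 of 19 passed the 2-fold limit.

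The sums per gene hid differences between transcripts. The 77 members have 407 listed transcripts, of which 351 reached 1 FPKM and 121 reached 100 FPKM in some library. In a typical member the leading transcript held most of the signal, with a median share of 93.1% on day 0 and 93.5% on day 9. In 41 members that share was over 90% in every library, and in 7 it was under 50% in every library. Of the 121 abundant transcripts, 4 (3.31%) passed the 2-fold limit on each of days 3, 6 and 9, against 27, 30.1 and 28.7% of all 969 transcripts of that abundance. Among the 351 transcripts of at least 1 FPKM the shares were 13.7, 13.4 and 15.7%, against 20.1, 21.8 and 21.8% of all 37418 such transcripts. How transcript FPKM were estimated is not given in the sources used here, and the transcripts of a gene share most of their reads.

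RPS24, a small subunit protein whose mRNA is known to be spliced in several ways near its 3′ end, held the largest differences among the transcripts of at least 100 FPKM. Its transcript ENST00000372360 had 1505 FPKM on day 0 and 300, 260 and 255 FPKM on days 3, 6 and 9, log2 ratios of -2.32, -2.53 and -2.56. ENST00000360830 went the other way with 311, 1217, 1374 and 1472 FPKM, log2 ratios of 1.97, 2.14 and 2.24. The share of ENST00000360830 in the gene's FPKM was 16.6% on day 0 and 77.8, 78.5 and 78.0% on the later days. Another transcript, ENST00000613865, had 55.1, 45.3, 115 and 158 FPKM. The sum for the gene moved much less, with 1874, 1564, 1751 and 1887 FPKM and a log2 ratio of 0.01 on day 9. The shares in the 3 later libraries were thus close to each other and far from day 0.

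In RPLP0, the difference from day 0 lay mostly in a single transcript. ENST00000313104 had 543 FPKM on day 0 and 216, 206 and 209 FPKM later, log2 ratios of -1.32, -1.40 and -1.37. ENST00000392514 had 558, 414, 514 and 548 FPKM and was back at its day 0 level on day 9. A transcript of RPL8, ENST00000394920, was past the limit on day 3 only, with 110 FPKM on day 0 and 49.7 FPKM on day 3, and stood at log2 ratios of -0.40 and -0.37 on days 6 and 9.

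The leading transcript also differed between libraries in RPL32 and RPS3, where several transcripts had like values. In RPL32, ENST00000457131 had 442, 305, 335 and 322 FPKM and ENST00000273223 had 400.0, 349, 392 and 376 FPKM. In RPS3, ENST00000534440 had 375, 324, 347 and 309 FPKM and ENST00000422465 had 294, 263, 294 and 318 FPKM. No transcript among these passed the 2-fold limit.

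**Figure D4:**
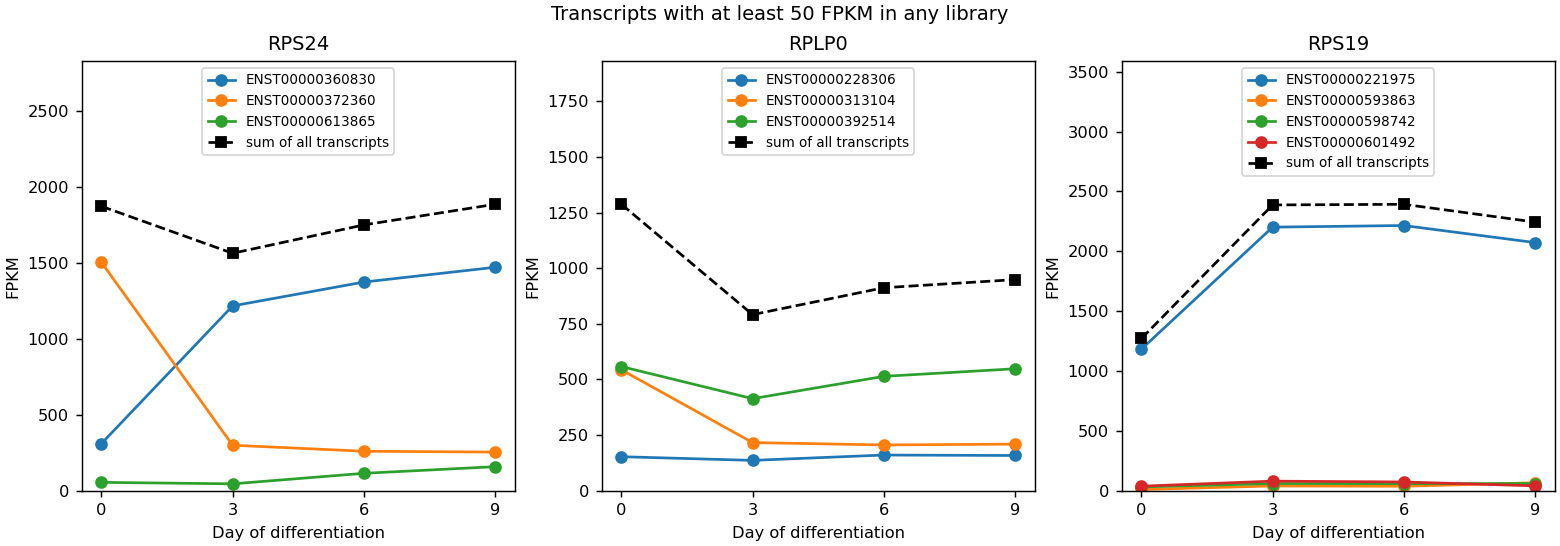
FPKM of the transcripts of RPS24, RPLP0 and RPS19 with at least 50 FPKM in any library, and of the sum of all transcripts of each gene (dashed), on days 0, 3, 6 and 9. In RPS24 the leading transcripts cross between days 0 and 3, in RPLP0 the transcript ENST00000313104 is lower after day 0, and in RPS19 ENST00000221975 carries nearly all of the sum.

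Members with and without a TOP-like start by the rule above overlapped in their ratios, but the medians of those without were lower on each day. Below day 0 on days 3, 6 and 9 were 49, 44 and 40 of the 53 with such a start and 8, 9 and 9 of the 9 without. The difference was not tested. The median log2 ratio of the 53 with such a start was -0.28, -0.21 and -0.21 on days 3, 6 and 9, and that of the 9 without was -0.40, -0.37 and -0.28. Both groups spanned a wide range, on day 3 from -0.93 to 0.91 and from -0.80 to 0.00. The 15 members whose starts were not analysed here had medians of -0.26, -0.19 and -0.13.

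Close relatives of the members, outside the naming rule, were more varied than the family. RPS27L, a paralog of RPS27 and a known target of p53, had 105 FPKM on day 0 and 487, 485 and 492 FPKM later, log2 ratios of 2.21, 2.20 and 2.23. RPS27 itself stood at -0.09, -0.07 and -0.09. RPL39L, a paralog of RPL39, had 61.0, 106, 116 and 115 FPKM, with log2 ratios of 0.79, 0.91 and 0.91, which at the same total became 0.99, 1.09 and 1.03 and so passed the limit on days 6 and 9. RPL26L1 had 133, 68.2, 61.0 and 72.7 FPKM and was past the 2-fold limit on day 6 with a log2 ratio of -1.11, which became -0.93 at the same total.

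The other relatives stayed within 2-fold. RPL22L1 had 113, 103, 126 and 120 FPKM, RPL36AL had 225, 167, 169 and 187 FPKM, and RPL7L1 had 59.2, 41.5, 42.7 and 45.4 FPKM. FAU, which encodes a small subunit protein fused to a ubiquitin-like protein, had 480, 323, 345 and 362 FPKM and was lowest on day 3. RPL3L and RPL10L, known from muscle and testis, were under 1 FPKM in every library. As deposited, RPS27L was thus the only 1 of the 8 relatives tested that was past the limit on all 3 days.

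The genes that make ribosomes stood further below day 0 than the genes of the ribosomal proteins. Of 40 ribosome biogenesis genes, 39, 39 and 38 were below day 0 on days 3, 6 and 9, and 14, 13 and 8 were past the 2-fold limit, against 5.3, 6.42 and 6.52% of all genes. The median log2 ratio was -0.84, -0.86 and -0.72. At the same total it was -0.68, -0.70 and -0.63, with 9, 6 and 5 genes past the limit, against 405, 517 and 639 of all 12859 genes tested. The nucleolar protein NCL had 445, 204, 202 and 186 FPKM, and POLR1B, a core subunit of RNA polymerase I, had 17.7, 6.42, 5.18 and 6.12 FPKM. GRWD1, LTV1, NIP7 and NOC2L were, like them, past the limit downwards on all 3 days, as were 3.45% of all genes, with log2 ratios from -1.38 to -1.10. NCL was short, at the same total, of the limit on days 3 and 6 (-0.92 and -0.96), GRWD1 on day 3 (-0.92) and NIP7 on day 9 (-0.99).

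The mitochondrial ribosomal protein genes, which serve the separate ribosome of mitochondria, lay between these groups. Of 77 such genes, 70, 71 and 66 were below day 0. Past the limit downwards were 9, 10 and 8 of them, against 5.3, 6.42 and 6.52% of all genes. Their median log2 ratio was -0.58, -0.61 and -0.52 as deposited and -0.39, -0.43 and -0.40 at the same total. On the latter scale 4, 5 and 4 of the 77 were past the limit downwards, against 405, 517 and 639 of all 12859 genes tested. MRPL20 had 130, 49.9, 51.6 and 51.4 FPKM and MRPL35 had 40.5, 13.3, 15.6 and 17.2 FPKM. MRPL3, MRPL54, MRPS7 and MRPS22 were also past the limit on all 3 days as deposited. Rescaled to the same total, MRPS22 was short of it on all 3 days (-0.93, -0.94 and -0.99), MRPS7 on day 3 (-0.86) and MRPL54 on day 9 (-0.92).

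The translation factors and other genes with known TOP mRNAs were likewise within 2-fold of day 0. Of the 15 tested, such as EEF1A1 and PABPC1, 12, 11 and 9 were below day 0 and 0 were past the limit. Their median log2 ratio was -0.21, -0.11 and -0.06, which became -0.01, 0.07 and 0.05 at the same total. No difference between these lists and the ribosomal protein genes was tested, since genes are not replicates.

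Of 14 regulators of ribosome synthesis and TOP translation, 12, 10 and 10 were below day 0, against 55.1, 54.8 and 55.1% of all genes. Their median log2 ratios were -0.27, -0.24 and -0.23. At the same total 8, 7 and 8 of the 14 were below day 0, with medians of -0.08, -0.07 and -0.12, against 43.4, 45 and 49% of all genes. MDM2, the ubiquitin ligase of p53 that RPL5 and RPL11 bind, was the only gene of the list past the limit on all 3 days, as 5.93% of all genes were in the upward direction, with 154, 787, 467 and 359 FPKM and log2 ratios of 2.35, 1.60 and 1.22. RPS6KB2, a kinase of RPS6, was past it downwards on days 3 and 6 with 20.8, 8.91, 9.06 and 10.1 FPKM. At the same total its log2 ratio stayed within the limit on both days.

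**Figure D5:**
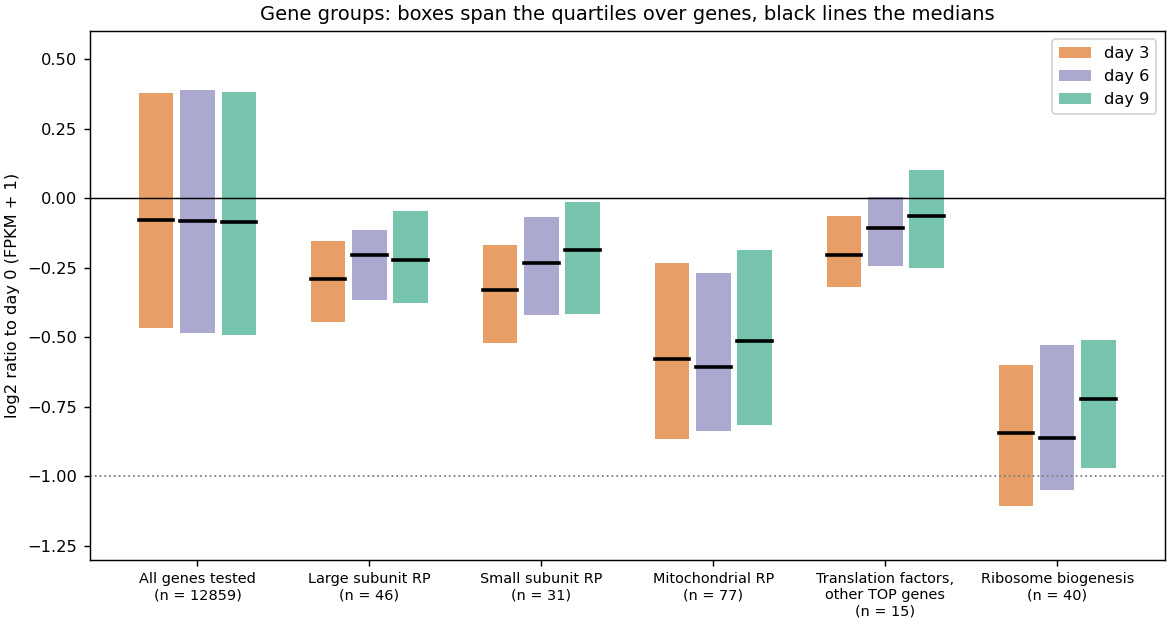
Log2 ratios to day 0 on days 3, 6 and 9 for 6 groups of genes, with boxes from the lower to the upper quartile over genes, black lines at the medians and a dotted line at a 2-fold decrease. The cytosolic RP genes of both subunits have narrow boxes just below 0, while the mitochondrial RP genes and the ribosome biogenesis genes lie lower.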

How the data were processed

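RNA of hFOB1.19 cells, 1 library per time point, was depleted of ribosomal RNA and sequenced from strand-specific libraries. Both the labels and the methods say that RNase R, which digests linear RNA, was used for the mRNA libraries. If so, the FPKM would be those of linear RNA left after digestion and not of the whole mRNA, which cannot be settled from these files. The authors deposited FPKM per transcript, and the program that made them is not given in the sources used here. The submitters' processing notes list Bowtie 0.12.2 and the mouse build mm8 for these human samples, whereas the methods name TopHat. How reads shared with the many ribosomal protein pseudogenes were placed is also not given, so values of near-identical copies are uncertain. The study lists a read total for each library, but FPKM do not give the number of reads per gene, so no counting interval is given. Columns were matched to time points by the day in their names.

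FPKM were summed per symbol (17 of the 19610 symbols cover more than 1 gene ID, 0 of them members). A pseudocount of 1 was added, a minimum of 1 FPKM in any library was required, and log2 ratios of at least 1 or at most -1 counted as past the limit. With 1 library per time point no test was possible, and lists are described by counts and medians beside all 12859 genes tested. The scripts (Python 3.11.15, numpy 2.4.6, pandas 2.3.3, matplotlib 3.10.9) were checked on simulated data. The members and lists were chosen with earlier results of these data known. Members named were the 5 highest and 5 lowest by day 9 ratio and by mean FPKM, those past the limit, those whose leading transcript differed, and the stalk, 5S and peptidyl transferase genes. Other members were named after their values were seen, and some genes are not reported here by name. Beyond the members, the relatives outside the naming rule and, in the lists, genes past the limit on all 3 days were named, and RPS6KB2 was added after its values were seen. The list of other TOP genes gives RACK1 also by its older symbol. Transcription starts came from the RefSeq table of GRCh38.p14. The authors' 9 tables of comparisons with day 0, which hold fold changes, p-values and q-values, and the circRNA counts, which carry no gene names, were not used. Alternatives covered the scaling, pseudocount, minimum, limit, transcript choice and most abundant members. The comparison of single transcripts, the TOP-like starts, the snoRNA host genes and the rescaling of lists, named genes and the days of highest and lowest level were added after seeing the data.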

Additional observations from a re-analysis of the deposited data

Results flagged for a closer look

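In the lncRNA table, which none of the comparisons above uses, 2 of 24 host genes of small nucleolar RNAs were at least 2-fold above the day 0 control library. SNHG14 had 5.16, 9.48, 16.9 and 11.4 FPKM on days 0, 3, 6 and 9, with log2 ratios to day 0 of 1.54 on day 6 and 1.01 on day 9. SNHG8 had 110, 127, 202 and 244 FPKM, with a log2 ratio of 1.14 on day 9. Of 2357 lncRNA genes, 15.5% were at least 2-fold higher than day 0 on day 6 and 13.4% on day 9, so the share among the host genes was not above this background. The cause was not tested.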

How the results depend on the processing

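No paired analysis was possible because there was only 1 library on each day. For the same reason no library could be left out of a comparison with day 0. No value past the limit changed its sign under any alternative run. The number of members past the limit was 1 on days 3 and 6 (RPS19) with each library at the same total, or with the other genes at the same total, and 1 on each day (RPS24) with the leading transcript in place of the sum. At 1.5-fold it was 14, 8 and 4 on days 3, 6 and 9. The median log2 ratio of the members was -0.11, -0.039 and -0.082 at the same total and -0.12, -0.042 and -0.090 at the same total of the other genes. The members' share of all FPKM on days 0, 3, 6 and 9 was 16.3, 15.9, 16.7 and 16.3% with leading transcripts and 12.1, 11.4, 11.9 and 11.6% without the 3 most abundant members of each subunit. The ratio of large to small subunit medians was 0.851, 0.798, 0.808 and 0.817 with leading transcripts. Ratios of sums were 1.32, 1.29 and 1.30 on days 0, 6 and 9, ratios of geometric means were 0.969, 0.960 and 0.951 on days 3, 6 and 9, and without the 3 most abundant members of each subunit the day 9 ratio was 1.24. The other 88 of 123 recomputed values stayed close to those reported, within 0.1 (log2), 1.1-fold (shares and ratios of medians) or 1.5-fold (counts). The same held for 493 of 846 log2 ratios of named genes, where the rescalings shift every gene. Many of the 88 could not have moved. All 77 members passed 100 FPKM in some library, so other minimums and leaving out members listed at 0 kept the same genes. Rescaling shifts both subunits alike, so the difference between their medians was also nearly fixed. Depth per gene is unknown from FPKM, and the spread between cultures was not measured.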

Other observations

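Small nucleolar RNAs guide the chemical modification of ribosomal RNA, and several of their host genes, like the ribosomal protein genes, are known for TOP starts. The 24 host genes in the lncRNA table (SNHG genes with a number, GAS5 and ZFAS1) were chosen after their values were seen. Of these, 17, 17 and 15 were below day 0 on days 3, 6 and 9, with median log2 ratios of -0.55, -0.65 and -0.61, against 0.21, 0.21 and 0.03 over all lncRNA genes. The most abundant, SNHG5, had 336, 171, 197 and 201 FPKM, and SNHG16 had 125, 56.9, 64.3 and 67.7 FPKM. ZFAS1 had 140, 88.1, 83.0 and 70.4 FPKM. GAS5, which is known to build up when growth stops, was higher on each later day than on day 0, with 77.9, 118, 109 and 103 FPKM. SNHG4 showed the lowest ratios, with 17.4, 1.52, 3.31 and 1.81 FPKM. At least 2-fold lower were 3, 2 and 5 of the 24, against 5.35, 5.81 and 6.79% of all 2357 lncRNA genes.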
